A study of Mus musculus with 8 samples.

Results

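Axon guidance ligands and receptors are the semaphorins, ephrins, Slits and netrin and the plexins, neuropilins, Eph receptors, Robo receptors, Dcc and Unc5 proteins that bind them. The 64 genes described here are those with gene probes whose name on the array begins with Sema, Plxn, Efna, Efnb, Epha or Ephb, together with Nrp1, Nrp2, Robo1, Robo2, Slit1, Slit2, Slit3, Ntn1, Dcc and Unc5a to Unc5d. They were read by 94 of the 55681 gene probes and make up 64 of the 34821 gene names on the array. The names were chosen without a threshold on any measured value. Each gene was read through its brightest probe.

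The cues act on the cytoskeleton of the cell that senses them. Semaphorins bind plexins, and most secreted semaphorins also need a neuropilin as co-receptor, whereas ephrins are held on one cell and signal to Eph receptors on the next and back into their own cell. Slits bind Robo receptors, and netrin binds Dcc and the Unc5 receptors. They are best known for steering growing axons, and several of them also guide vessels and control the migration and contacts of myeloid cells.

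The study asked how resident microglia and invading macrophages differ in the same ischemic brains. It used bone marrow chimeric mice of the C57BL/6 strain, in which focal ischemia of the brain (MCAo, occlusion of the middle cerebral artery) lasted 30 min and was followed by reperfusion for 7 days, without further treatment. Resident microglia were sorted as GFP-positive cells and invading macrophages as RFP-positive cells, so that all cells of either group came from chimeric, ischemic animals, and no healthy brain enters the comparison. The marrow donors, the ages and the drivers of the fluorescent proteins are not stated in the labels. Microglia and macrophages were taken from the same 4 animals, named A to D, 1 array for each animal and cell type, which makes 4 biological replicates a group, and replicates 1 to 4 are these animals in that order. RNA was amplified by a global PCR before it was labelled and hybridised to 8 single-colour arrays.

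The share of probes well above background ran from 45.7% to 57.1% over the arrays, and saturation did not occur among gene probes. The labels held against their markers. A list of 15 microglial genes had medians of 6.53 to 6.65 on the microglia arrays and of 3.67 to 4.88 on the macrophage arrays. Levels here and throughout are log2 signals relative to the 75th percentile of the array. Ccr2, a chemokine receptor of monocytes, was at 0.99 ± 0.34 (SD, n = 4) in microglia and at 3.46 ± 0.24 in macrophages. One macrophage array stood apart. Macrophage replicate 2, from animal B, correlated with the other macrophage arrays at r = 0.855 to 0.887 across genes, which are not independent replicates, while those correlated among themselves at 0.943 to 0.960. A list of 19 endothelial genes had a median of 5.46 on it, against 0.75, 2.37 and -1.97 on macrophage replicates 1, 3 and 4 and -5.57 to -3.67 on the microglia arrays. On each microglia array 7 to 9 of those 19 genes were well above background, and 9 were on none of them. Results that rest on that array are given with it and without it.

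Of the 64 genes, 33 could be tested, being well above background on 4 arrays or more, which is 51.6% against 56.6% of all gene names. Receptors of semaphorins were the best measured, with 7 of 9 plexins and both neuropilins tested, and 10 of 13 membrane-bound semaphorins. Of 7 secreted semaphorins only Sema3b and Sema3f were tested, of 8 ephrins only Efna2 and Efnb2, of 14 Eph receptors 7, of 3 Slits only Slit2, and neither Robo receptor. Dcc and Unc5a were the tested members among netrin and its receptors. None of the 33 passed this filter through a single group. Of the 33, 6 were read by a probe that holds a simple repeat or is placed on another chromosome than the gene. These were Sema4c, Ephb3, Epha5, Sema6d, Dcc and Plxna2, which are taken up below. With probes free of both, 29 of the 64 passed the filter, Plxna2 through the macrophages alone.

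Plxnd1, a plexin, and Nrp1, a neuropilin, were higher in invading macrophages, and Plxna4, a plexin, and Sema4g, a membrane-bound semaphorin, were lower. These were the 4 members past an adjusted p of 0.05, 2 in each direction (limma, Benjamini-Hochberg adjustment over all 19720 gene names tested). The same threshold was passed by 2.53% of all tested gene names in the higher direction and by 4.13% in the lower. With the animal as a block, 1 member was higher and 2 were lower, beside 1.29% and 2.44% of all tested gene names. Without macrophage replicate 2, 3 members were higher and 2 lower, beside 8.27% and 6.86%. The median difference of the 33 genes was -0.08 on the log2 scale, with 12 higher and 21 lower in macrophages. The median over all tested gene names was 0.02. All 6 genes read by a repeat probe or one on another chromosome were among the 21. With probes free of both, the median of 29 members was -0.06, with 13 higher, Plxna2 among them, and 16 lower. With arrays centred on their medians, the median of the 33 genes was 0.12, with 19 higher and 14 lower. That scaling moved the median of all tested gene names by 0.21, and taking the 75th percentile over probes well above background on all arrays moved it by -0.16. Of all calls 37.9% were higher in macrophages, and 55.9% and 26.3% under these scalings, while the 4 members kept their calls under both. In 7 of the 33 all macrophage arrays lay on one side of all microglia arrays, 3 of them higher and 4 lower. Over all tested gene names that share was 7.49% in the higher direction and 9.46% in the lower. In samples of many cells, fewer cells that express a gene and less RNA per cell cannot be told apart.

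**Figure D1:**
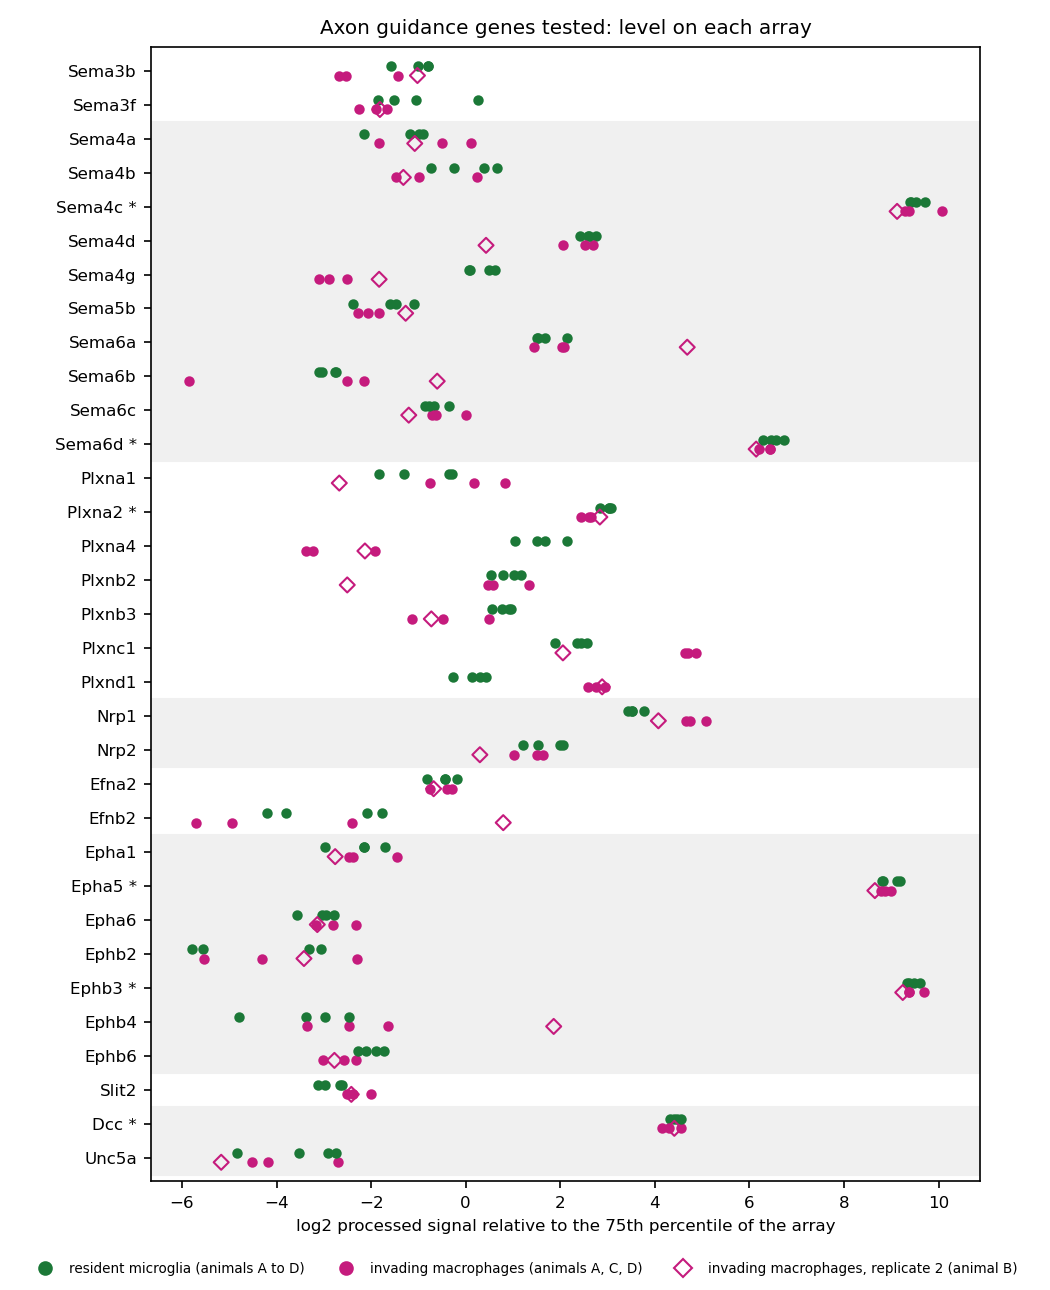
Level of each of the 33 tested genes on each array, as log2 signal relative to the 75th percentile of that array, with microglia as green points, macrophages as magenta points and macrophage replicate 2 as an open diamond. Grey bands separate the families, and an asterisk marks genes whose brightest probe holds a repeat tract or is placed on another chromosome. The green and magenta points of Plxna4, Sema4g, Plxnd1 and Nrp1 do not overlap, and the diamond lies far from the other macrophage points for Sema6a, Ephb4, Efnb2, Plxnb2, Plxnc1 and Sema4d.

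Plxnd1 is the plexin that binds Sema3e and, together with neuropilins, other secreted semaphorins, and is known for its part in vessel patterning. On the microglia arrays of animals A, B, C and D it was at 0.44, 0.13, 0.31 and -0.26, and on the macrophage arrays of the same animals at 2.95, 2.88, 2.75 and 2.59. Every macrophage array was above every microglia array by a wide margin, and the macrophage arrays lay close together. The difference was 2.64 ± 0.23 (SE), a 6.23-fold higher signal (limma, adjusted p = 0.000348), and blocking on the animal gave an adjusted p of 0.00743 (limma). It was higher in macrophages in 4 of 4 animals. A further Plxnd1 probe gave a difference of 1.73. Slide 1 held 1 macrophage array and 2 microglia arrays, and slide 2 held 3 and 2. Within the arrays of slide 1 the difference was 2.67, which rests on that 1 macrophage array. Within those of slide 2 it was 2.72 (limma, adjusted p = 0.0521 on these fewer arrays). Endothelial cells also express Plxnd1, and the endothelial list was higher on the macrophage arrays. The median of that list was 0.75, 5.46, 2.37 and -1.97 on the macrophage arrays of animals A to D. Without replicate 2 the Plxnd1 difference was 2.61. The part of endothelial cells in the Plxnd1 level was not tested.

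Nrp1, a co-receptor of secreted semaphorins and of vascular endothelial growth factor, was at 3.78, 3.51, 3.44 and 3.51 in microglia of animals A to D and at 5.08, 4.07, 4.66 and 4.73 in macrophages. The groups did not overlap, and macrophage replicate 2 was the lowest of its group. Endothelial cells express Nrp1 too, and their part in its level was not tested. Nrp1 was 2.11-fold higher in macrophages, a difference of 1.08 ± 0.26 (SE; limma, adjusted p = 0.0426), in 4 of 4 animals. That value is close to the threshold. With the animal as a block the adjusted p was 0.0774, and with the slide as a block it was 0.0506 (limma). Without macrophage replicate 2 the difference was 1.26 (limma, adjusted p = 0.0079), and leaving out any other array ended the call, with adjusted p up to 0.117. Slides 1 and 2 taken alone gave 1.43 and 1.01, the first with 1 macrophage array only.

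Nrp2, the other neuropilin, did not follow it. Its levels were 2.0, 1.52, 2.06 and 1.22 in microglia and 1.63, 0.30, 1.02 and 1.52 in macrophages, with overlapping groups. The difference was -0.58, with a 95% confidence interval of -1.38 to 0.22 (limma, adjusted p = 0.349). A further Nrp2 probe, well above background on all arrays, gave a difference of -0.05. Whether Nrp1 and Nrp2 differ from each other in this respect was not tested.

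Plxna4, a receptor of secreted and membrane-bound semaphorins, had the largest difference of the 33 genes. It was at 2.13, 1.67, 1.03 and 1.52 in microglia and at -3.37, -2.13, -1.92 and -3.24 in macrophages, in which it was detected well above background by 3 of 4 arrays. All microglia arrays were above all macrophage arrays. The signal was 19.1-fold lower in macrophages, a difference of -4.25 ± 0.41 (SE; limma, adjusted p = 0.000634), in 4 of 4 animals, and blocking on the animal gave 0.0167 (limma). On slide 1 alone, with its 1 macrophage array, the difference was -5.28. On slide 2 alone it was -3.70 (limma, adjusted p = 0.0706). A further probe of the gene was between -0.05 and 0.87 in microglia and between -3.78 and -2.53 in macrophages, where it was well above background on 1 of 4 arrays.

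Sema4g, a membrane-bound semaphorin, was at 0.08, 0.63, 0.49 and 0.09 in microglia and at -2.89, -1.83, -2.51 and -3.11 in macrophages. Again no macrophage array reached the lowest microglia array, and 3 of 4 macrophage arrays measured the gene well above background. It was 7.51-fold lower in macrophages, a difference of -2.91 ± 0.32 (SE; limma, adjusted p = 0.00126), in 4 of 4 animals, and blocking on the animal gave 0.00727 (limma). Within slide 1, with its 1 macrophage array, the difference was -3.24. Within slide 2 it was -2.78 (limma, adjusted p = 0.119). Plxnd1, Plxna4 and Sema4g passed the threshold whichever of the 8 arrays was left out.

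The probes behind these 4 genes are shown because the value of some other members turned on which probe was read. The window is the first 30 of the 60 bases of each probe, with the position of the whole probe in build mm9 as the array files give it. Plxnd1 lies at chr6:115905315-115905374 on the minus strand, Nrp1 at chr8:131026650-131026709 on the plus strand, Plxna4 at chr6:32094602-32094661 on the minus strand and Sema4g at chr19:45077642-45077701 on the plus strand. Whether these stretches are coding or untranslated was not analysed here. No base is capitalised, since none of these probes holds a simple repeat over 8 bases long.
Plxnd1: agggaatttctgcttcagccaccaagcagt
Nrp1: ttgtggatggtgtaaagttgaaaaaagata
Plxna4: ctcaccttgaataccaaccttttgaaagaa
Sema4g: ctcttgggtgaggatgactgttatttttgt

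Plxnc1 and Plxnb3 came near the threshold. Plxnc1, the receptor of Sema7a and a plexin of myeloid cells, was at 2.56, 1.89, 2.36 and 2.44 in microglia and at 4.87, 2.06, 4.71 and 4.63 in macrophages. The macrophage arrays of animals A, C and D were far above all microglia arrays, whereas that of animal B was among them. Over all arrays the difference was 1.75 ± 0.60 (SE; limma, adjusted p = 0.121). Without macrophage replicate 2 it was 2.43, a 5.37-fold higher signal (limma, adjusted p = 0.000845). Of the 8 fits that left out 1 array, only this 1 passed the threshold. A further Plxnc1 probe showed the same order of arrays, with 1.90 on macrophage replicate 2 and 3.78 to 4.11 on the other macrophage arrays. The 5 markers on the array of myeloid cells shared by both groups had a median of 4.59 on macrophage replicate 2 and of 6.44 to 6.55 on the others. Their summed signal was at 9.34 there, against 9.71 to 10.37. Itgam, at 8.94, was within the 8.79 to 9.53 of the other macrophage arrays, while Ptprc and Tyrobp were lower there. Whether this bears on the Plxnc1 result was not tested.

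Plxnb3, a receptor of semaphorins of the Sema5 class, was at 0.78, 0.56, 0.95 and 0.91 in microglia and at -0.49, -0.73, -1.14 and 0.49 in macrophages. The groups did not overlap, but the macrophage array of animal D came close to the microglia. The difference was -1.27 ± 0.35 (SE; limma, adjusted p = 0.0674), and blocking on the animal gave 0.105 (limma). Of the 8 fits that left out 1 array, only 1 passed the threshold. That was the fit without macrophage replicate 4, with a difference of -1.59 (limma, adjusted p = 0.0143). In the others the adjusted p ran up to 0.159 (limma).

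The remaining tested plexins did not pass the threshold either. Plxna1, which pairs with neuropilins, was at -0.29, -1.31, -0.35 and -1.84 in microglia and at 0.83, -2.67, 0.18 and -0.76 in macrophages. Plxnb2, a receptor of Sema4 proteins, was at 1.16, 0.79, 0.53 and 1.03 in microglia and at 0.58, -2.50, 0.47 and 1.34 in macrophages. For both, the array of animal B was the lowest of the macrophages by over 1 unit. Their differences were 0.34 and -0.90 over all arrays and 1.03 and -0.08 without macrophage replicate 2 (limma, adjusted p = 0.812, 0.496, 0.204 and 0.874).

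Among the membrane-bound semaphorins other than Sema4g none passed the threshold. Sema4d, a semaphorin of immune cells that binds Plxnb receptors, was at 2.77, 2.59, 2.60 and 2.41 in microglia and at 2.69, 0.43, 2.53 and 2.07 in macrophages. Only the macrophage array of animal B was clearly lower. The difference was -0.66, with a 95% confidence interval of -1.73 to 0.41, and -0.16 without that array (limma, adjusted p = 0.43 and 0.651).

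Sema4a, which acts on T cells, was at -0.99, -2.16, -0.90 and -1.17 in microglia and at -0.50, -1.08, 0.11 and -1.84 in macrophages, with wide overlap (difference 0.48; limma, adjusted p = 0.562). Sema4b was at 0.66, -0.25, -0.73 and 0.38 in microglia and at 0.25, -1.32, -0.99 and -1.48 in macrophages. It was lower in the macrophages of all 4 animals, but the groups overlapped (difference -0.90, 95% confidence interval -1.94 to 0.14; limma, adjusted p = 0.267). Sema5b, Sema6b and Sema6c had differences of -0.22, 0.13 and 0.02, and none of them passed the threshold.

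The secreted semaphorins that could be tested, Sema3b and Sema3f, had differences of -0.88 and -0.86 (limma, adjusted p = 0.238 and 0.27), each lower in macrophages in 3 of 4 animals. Sema3d and Sema3e, the latter a ligand of Plxnd1, were on no array well above background. Sema3a, the classical repellent of growing axons, was well above background on 1 macrophage array only.

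**Figure D2:**
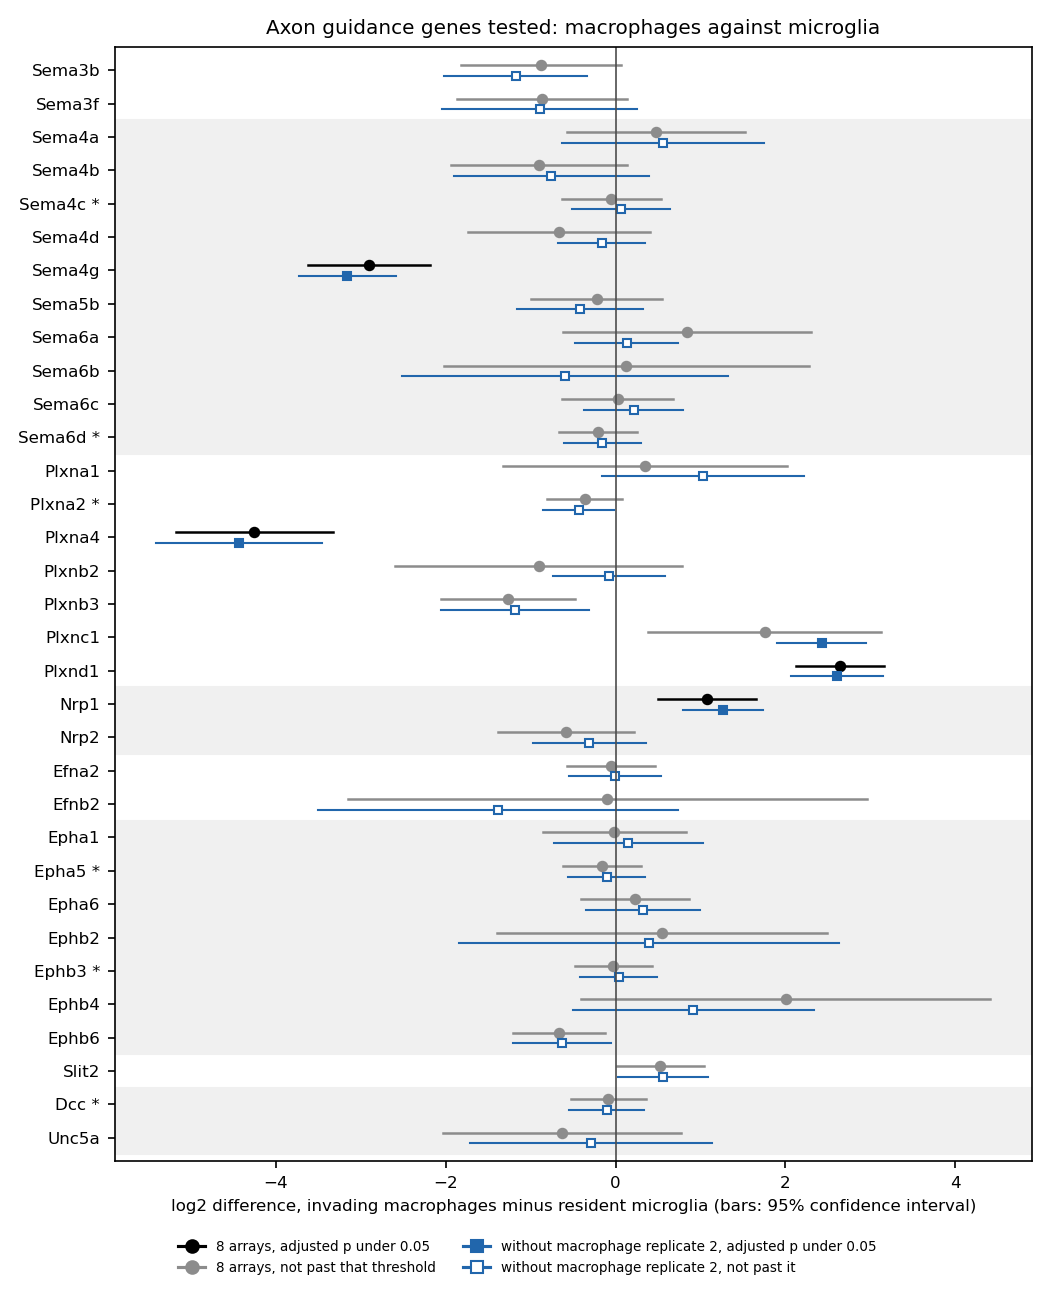
Difference between invading macrophages and resident microglia for each of the 33 tested genes on the log2 scale, with 95% confidence intervals. Circles are the fit over 8 arrays (black where the adjusted p is under 0.05), and blue squares the fit without macrophage replicate 2 (filled where it is under 0.05). Plxnd1, Nrp1, Plxna4 and Sema4g are past the threshold in both, Plxnc1 only without that array, and the intervals of Ephb4, Efnb2, Plxnb2 and Sema6a narrow when it is left out.

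No Eph receptor and no ephrin passed the threshold. Ephb6, an Eph receptor without kinase activity, was at -1.72, -2.12, -1.90 and -2.28 in microglia and at -3.01, -2.78, -2.31 and -2.58 in macrophages. These groups did not overlap, though they nearly touched. The difference was -0.67 ± 0.24 (SE; limma, adjusted p = 0.134), and a further probe of the gene gave 0.33, the opposite sign. Ephb2 was well above background on 2 arrays of each group and overlapped (difference 0.55; limma, adjusted p = 0.733). Efna2 differed by -0.06, with a 95% confidence interval of -0.58 to 0.46. Epha1 and Epha6 differed by -0.02 and 0.23.

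The ephrin Efnb2 and its receptor Ephb4, a pair known for separating arteries from veins, were each highest on macrophage replicate 2. Efnb2 was at -3.81, -1.76, -4.20 and -2.09 in microglia and at -4.93, 0.79, -2.40 and -5.70 in macrophages. Ephb4 was at -4.80, -2.98, -3.37 and -2.46 in microglia and at -2.47, 1.86, -1.65 and -3.35 in macrophages. Away from that array the groups overlapped in both genes. The differences were -0.10 for Efnb2 and 2.0 for Ephb4 (limma, adjusted p = 0.975 and 0.288), and -1.38 and 0.91 without replicate 2 (limma, adjusted p = 0.332 and 0.338).

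Slit2, a secreted repellent, was at -3.13, -2.67, -2.98 and -2.63 in microglia and at -2.50, -2.42, -2.39 and -1.99 in macrophages. The groups did not overlap. The difference was 0.52 ± 0.22 (SE; limma, adjusted p = 0.198). Slit1 and the receptor Robo1 were on no array well above background, and Robo2 was on 1 array of each group. Unc5a, a netrin receptor, overlapped between the groups, with a difference of -0.63 (limma, adjusted p = 0.566), and Unc5c was on no array well above background. Of the 33 genes, 8 had an unadjusted p under 0.05 (limma), which was the case for 23.9% of all tested gene names.

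Macrophage replicate 2 stood out in many of the genes that were otherwise near background. Its detection limit, the lowest signal well above background, was at -5.00, against -4.23 to -3.42 on the other arrays. Read through the brightest probe of each gene, it was the only array well above background for 10 of the 64 genes, or 15.6%, against 3.11% of all gene names. These were Efna1, Efna3, Epha3, Ephb1, Ntn1, Sema5a, Sema7a, Slit3, Unc5b and Unc5d. Sema5a was at -4.04 on it, below the -3.85 of the microglia array of animal B, and a further Efna3 probe was well above background on 1 microglia array and on no macrophage array. In 17 of the 64, or 26.6%, it exceeded every other array by more than 1 unit, against 5.42% of all gene names.

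Sema3g, a secreted semaphorin of vessels, was one of these. It was at -3.39, -4.43, -4.43 and -4.17 in microglia, on no array well above background, and at -0.93, 4.61, 0.60 and -5.66 in macrophages, on 3 arrays well above background. Animal B was far above the rest, and animal D was below every microglia array. Against the microglia at their detection limit, the macrophage mean, with animal D entered as measured, was at least 10.4-fold higher. Without replicate 2 it was at least 3.32-fold higher. A further Sema3g probe was well above background on 2 macrophage arrays and no microglia array. Its bound was at least 2.32-fold, and none could be given without replicate 2. Too few arrays measured the gene for a test.

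Sema3c, another secreted semaphorin, was between -6.29 and -5.53 in microglia and at -3.94, 2.06, -2.97 and -5.83 in macrophages. Epha4, an Eph receptor that binds ephrins of either class, was between -5.70 and -3.55 in microglia and at -2.96, 3.56, -2.48 and -3.56 in macrophages. Sema7a, a membrane-anchored semaphorin, was between -6.20 and -5.49 in microglia and at -3.85, 0.92, -3.93 and -5.83 in macrophages. In all of these the array of animal B was the highest by more than 4 units. Sema3c was well above background on 2 macrophage arrays and Sema7a on 1, and neither was on any microglia array. Their macrophage means as measured lay 2.21-fold and 1.56-fold above the detection limit of the microglia. Without the array of animal B the remaining means lay below that limit, so no bound could be given. Epha7, well above background on 2 macrophage arrays and no microglia array, behaved likewise. Its bound was at least 2.33-fold over all macrophage arrays, with none without replicate 2. Another Epha7 probe, on 1 macrophage array, gave at least 1.11-fold, and a further one was well above background on no array.

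Efna1, an ephrin of the endothelium, was at -0.02 on macrophage replicate 2 and between -6.02 and -4.11 on all other arrays, and Unc5b, a netrin receptor of vessels, at -1.02 against -6.17 to -5.05. Ntn1 was at -2.31 there and between -6.10 and -4.36 elsewhere. Sema6a was measured on all arrays and stood at 4.68 on replicate 2 and at 1.44 to 2.15 on the others, with a difference of 0.84 over all arrays and 0.13 without it (limma, adjusted p = 0.464 and 0.762).

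All 19 endothelial markers were well above background on macrophage replicate 2, as against 15 to 18 on the other macrophage arrays and 7 to 9 on the microglia arrays. Cldn5, a tight junction protein of brain endothelium, was at 7.09 on it. Pericyte and smooth muscle markers had a median of -0.54 on that array and of -5.32 to -3.06 on the other macrophage arrays. Neutrophil markers had a median of 1.90 there, against -2.22 to -0.94, and dendritic cell markers one of 0.50, against -1.72 to -0.59. The summed signal of 5 erythroid markers was at 7.65 on it, against 1.26 to 2.89, on the log2 scale. Natural killer cell markers had medians of -2.10 to 1.21 on the macrophage arrays and of -5.25 to -4.23 on the microglia arrays. The part of these cells in the levels of Sema3g, Sema3c, Epha4, Ephb4, Efnb2, Efna1 and Unc5b was not tested.

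**Figure D3:**
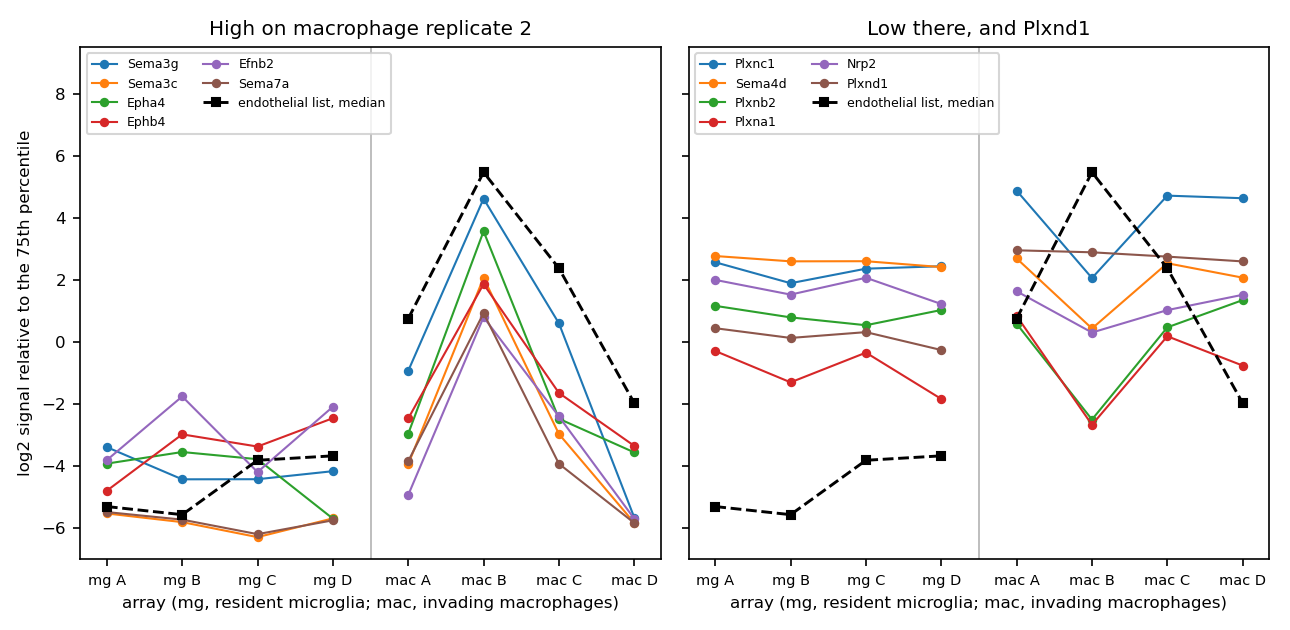
Levels by array of 6 genes that were high on macrophage replicate 2 (left) and of 5 that were low there, with Plxnd1 (right), as log2 signal relative to the 75th percentile of the array, chosen after their values were seen. Lines only join the points of a gene within a group, and the black squares are the median of the 19 endothelial markers, which reached 5.46 on that array. Plxnd1 was between 2.59 and 2.95 over the macrophage arrays.

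A few genes were seen only in microglia. Epha2, an Eph receptor, was at -3.24, -2.14, -1.94 and -2.49 in microglia, on 3 arrays well above background, and at -3.48, -4.57, -5.67 and -5.69 in macrophages, on none. The groups did not overlap, and the microglia were at least 2.70-fold higher against the detection limit of the macrophage arrays. The ephrins Efna4, Efna5 and Efnb1 and the receptor Epha10 were well above background on 1 or 2 microglia arrays and on no macrophage array. On no microglia array but on 2 macrophage arrays were Efnb3 and Plxnb1, a receptor of Sema4d. Plxna3 was on 1 array of each group. Epha8 and Sema4f were on none.

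For 6 of the 33 tested genes the brightest probe held a simple repeat or was placed on another chromosome than the gene. The probes of Sema4c, Ephb3, Epha5 and Sema6d each hold a simple repeat of T and G of at least 20 bases, and that of Dcc a different repeat. The probes of Dcc and Plxna2 are placed by the array files on chromosomes 7 and 14, while RefSeq (GRCm38.p6) places the genes on other chromosomes. The following windows of 30 bases, from probes in build mm9, show the repeats in capitals, and for Epha5, Sema6d and Plxna2 the brightest of the gene's other probes, as far as it is free of a repeat and on the gene's own chromosome.
Sema4c: aaTGTGTGTGTGTGTGTGTGTGTGTtgtaa
Ephb3: agccagagacTGTGTGTGTGTGTGTGTGTG
Epha5: acatcgaaatTGTGTGTGTGTGTGTGTGTG
Epha5, other probe: gttcccatctgcatttgtttgtgctttcag
Sema6d: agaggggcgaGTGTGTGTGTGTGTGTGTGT
Sema6d, other probe: taaagaggacaccatccttaaaacctgatg
Plxna2, chromosome 14: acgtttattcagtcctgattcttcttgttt
Plxna2, other probe: catgtacctattgtaaatatgaaactccta

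The probes with repeats were bright and nearly flat over the arrays. Sema4c was at 9.51 ± 0.14 (SD, n = 4) in microglia and 9.46 ± 0.42 in macrophages, Ephb3 at 9.45 ± 0.13 and 9.42 ± 0.19, and Epha5 at 8.98 ± 0.19 and 8.82 ± 0.14. The Dcc probe was at 4.44 ± 0.09 and 4.36 ± 0.17. No array had the other probes of Epha5 well above background, nor the Dcc probes on the gene's own chromosome. Over the whole array 243 probes held a repeat tract of 16 or more bases. Of these, 96.7% were well above background on all 8 arrays, with a median SD over the arrays of 0.20, against 38.0% and 0.63 for the 55438 probes without one. The 230 probes that hold no such tract and were at least as bright as the median repeat probe were well above background on all 8 arrays in 100% of cases, with a median SD of 0.32. The 75 probes with a tract of T and G had a median level of 9.18. The levels and differences of Sema4c, Ephb3, Epha5, Sema6d and Dcc given by these probes are therefore stated for the probe, not for the gene.

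**Figure D4:**
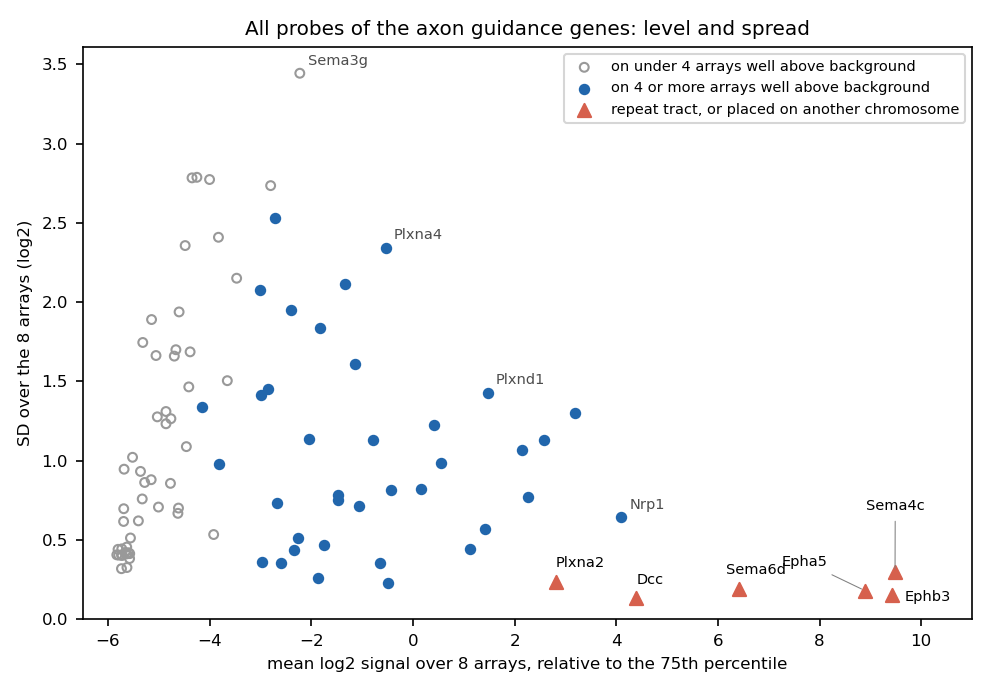
Mean level of each of the 94 probes over the 8 arrays (log2 relative to the 75th percentile) against its SD over the same arrays. Triangles mark the probes with a repeat tract or placed on another chromosome, which lie at the lower edge (Sema4c, Ephb3 and Epha5 near a level of 9), while Plxna4 and Plxnd1 vary more.

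Plxna2 and Sema6d read differently through their other probes. Plxna2, a plexin that binds neuropilins and Sema6 proteins, was at 3.0 ± 0.11 (SD, n = 4) in microglia and 2.63 ± 0.16 in macrophages on the probe placed on chromosome 14, a difference of -0.36 (limma, adjusted p = 0.291). On the probe placed on chromosome 1, at chr1:196642958-196643017, it was at -5.17, -4.21, -6.03 and -3.14 in microglia and at -2.28, 1.94, -1.32 and -1.45 in macrophages. Every macrophage array was above every microglia array on this probe, which was well above background on all 4 macrophage arrays and on no microglia array. Since microglia were not well above background, the fold is a bound of at least 7.58, or at least 4.04 without macrophage replicate 2. The probe passed the filter only through the macrophages, so no test is given for it.

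Sema6d, a ligand of Plxna1 that also signals back into its own cell, differed by -0.21 on the repeat probe (limma, adjusted p = 0.561). Its other probe was at -0.12, -1.63, -0.33 and -0.60 in microglia and at -4.37, -0.28, -2.84 and -4.47 in macrophages. Here the macrophage array of animal B lay among the microglia and the other macrophage arrays far below them. The probe was well above background on all 4 microglia arrays and on 2 of 4 macrophage arrays, and no difference or test is given for it. With probes chosen in this way 29 members passed the filter. Past the threshold were the same 4 genes and Plxna2, which supports nothing, since its probe passed through the macrophages alone. Over all 19479 gene names tested by that rule, 2.51% were higher and 4.17% lower.

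Of the members, 25 had several probes, and in 10 of these more than 1 probe passed the filter. In 3 of the 10 the probes differed in sign between the groups. These were Plxna2, Ephb6 and Sema6c, the last with differences of 0.02 and -0.04.

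Other genes of the same pathways were taken from a list of 104, of which 73 could be tested. Of these 1 was higher in macrophages and 5 were lower, beside 2.53% and 4.13% of all tested gene names, and the median difference was 0.02, as it was over all of those. With the animal as a block the counts were 2 and 3, beside 1.29% and 2.44%, and without macrophage replicate 2 they were 5 and 10, beside 8.27% and 6.86%. L1cam, an adhesion molecule that associates with neuropilins, was at -3.70, -1.70, -2.60 and -3.34 in microglia and at -0.60, 0.62, 0.00 and -1.21 in macrophages. It was higher in macrophages in 4 of 4 animals, without overlap, by 2.54 ± 0.53 (SE; limma, adjusted p = 0.0257). Leaving out microglia replicate 1, 3 or 4 or macrophage replicate 1 or 3 ended that call, with an adjusted p of up to 0.0789 (limma).

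Rgmb, a ligand of the netrin receptor neogenin, was at 1.79, 1.94, 2.02 and 2.11 in microglia and at -0.67, -0.46, -0.67 and -0.85 in macrophages. The groups were far apart and each was tight. It was 6.17-fold lower in macrophages, a difference of -2.63 ± 0.20 (SE; limma, adjusted p = 0.000173), and kept its call whichever array was left out. Blocking on the animal gave an adjusted p of 0.00837 (limma).

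The other lower genes act inside the cell, where 4 of 55 tested transducers were lower and 0 higher, beside the same 4.13% and 2.53% of all tested gene names. With the animal as a block 1 was lower and 1 higher. Srgap2, which acts downstream of Robo receptors, was 3.30-fold lower, Mical3, of a family of plexin-bound enzymes that act on actin, 3.59-fold, Sipa1l1 3.55-fold and Ssh2, a phosphatase of the actin regulator cofilin, 2.59-fold (limma, adjusted p = 0.0215, 0.0262, 0.0196 and 0.0374). All were lower in 4 of 4 animals. With the animal as a block Srgap2, Mical3 and Ssh2 lost the call (limma, adjusted p = 0.0607, 0.0618 and 0.0785), while Sipa1l1 had an adjusted p of 0.0428. The block also added Mical2, higher by 1.24 (limma, adjusted p = 0.0492, and 0.359 without the block), and Timd2, a receptor of Sema4a, lower with a difference of -2.45 (limma, adjusted p = 0.0327, and 0.077 without the block). Of the 8 fits that left out 1 array, 2 kept the calls of Mical3 and Ssh2, 3 that of Srgap2 and 4 that of Sipa1l1, and leaving out microglia replicate 1, 2 or 4 ended all of them (limma, adjusted p up to 0.104).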

How the data were processed

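Per the labels, mRNA of the sorted cells was captured on magnetic beads after column extraction, and cDNA made from it went through a global PCR and Cy3 labelling. Per the file headers, the scanner output comes from version 10.7.3.1 of Agilent Feature Extraction, with background already removed from the processed signal and probes placed in build mm9. The deposited processed signal is an intensity that was not scaled between arrays. The log2 table that the authors deposited for the same arrays has column medians of 4.604 to 4.606 and was used as an alternative, its normalization being unstated.

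Control spots and spots flagged as outliers were left out, and spots of a probe were averaged. The log2 intensity minus the 75th percentile of the array was used, and the brightest probe stood for a gene name. Gene names well above background on at least 4 of 8 arrays, 19720 of 34821, were compared in R 4.3.3 with limma 3.58.1 (lmFit, eBayes), a two-sided test whose p-values were adjusted by Benjamini-Hochberg over all of them. An adjusted p under 0.05 is a call. Differences are macrophages minus microglia. Where a group had a gene at background on all its arrays, the fold is a bound, taken against the lowest signal well above background on each array. The other group entered with its measured signals, also on arrays where the gene was not well above background. Such a bound therefore holds only for the mean as measured. The fit was tested on simulated data. Python 3.11.15 was used for the tables (numpy 2.4.6, pandas 2.3.3).

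Samples of an animal share a replicate number, so that the labels pair them. Across gene names, the departures of a microglia array and a macrophage array from their group means correlated for animals A to D at 0.062, 0.102, 0.064 and -0.012. For arrays of different animals these correlations ran from -0.102 to 0.062. The ranges overlap, so the pairing rests on the labels and not on these values. The fit without the animal is reported, with the blocked value where it changes a call. Slides, each holding both groups but slide 1 only 1 macrophage array, were tried as a block and alone.

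Members with values are those called, those with an unadjusted p under 0.05, the tested genes of a landmark set and some other members. The remaining members are given by detection. The members, the lists of pathway genes and of cell type markers and the tests were chosen with earlier results of these data known. The choice of probes without repeats was added after the data were seen. Of 104 other pathway genes 102 were matched to a probe.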

Additional observations from a re-analysis of the deposited data

Results flagged for a closer look

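Plxnc1 in invading macrophages was the sole case, among 66 groups of 4 arrays of the tested members, in which Dixon's test set an array apart from its group. Macrophage replicate 2, from animal B, was at 2.06, and the nearest other macrophage array was at 4.63, so that the gap made up 0.913 of the range of the group, above the limit of Dixon's test at 95%. By chance about 1 group in 20 is set apart in this way, or 3.3 of 66.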

How the results depend on the processing

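Nrp1 was the called member whose call depended most on the processing, with 12 of 26 alternatives keeping it, as against 24 of 26 for Plxnd1, 24 of 25 for Plxna4 and 23 of 25 for Sema4g. No alternative turned the direction of these 4. With the animal as a replicate block the members higher and lower in macrophages were 1 and 2 (2 and 2 without it), those over all tested gene names 255 and 481 (498 and 815), and other pathway genes 2 and 3 (1 and 5). The block changed no call of a tested member other than that of Nrp1. With the animal and slide as blocks the counts over all gene names were 257 and 471 and those of pathway genes 2 and 3. With the slide alone as a block 1 member and no pathway gene (0) were higher, beside 270 of all gene names. On slide 1 alone 0 members were higher and 1 lower, 55 and 195 of all gene names and 0 and 2 pathway genes. On slide 2 alone these were 0 and 0, 8 and 114, and 0 and 1, where fewer arrays were compared.

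Without any filter 1 member, 277 of all gene names and 2 pathway genes were higher. Under the filter on all 8 arrays 0 members were lower, since Plxna4 and Sema4g were not tested, and 485 of all gene names. Estimated array weights, 0.226 for macrophage replicate 2, gave 4 lower members, 1905 higher and 1610 lower gene names, and 6 higher and 10 lower pathway genes. Median centring gave 803 higher gene names and 2 higher pathway genes, the percentile over probes on all arrays 1267 lower gene names and 8 lower pathway genes, and normexp and the intensity trend 2 higher pathway genes each. The cause of these shifts was not tested.

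Leaving out 1 array at a time gave 1 to 3 higher and 2 to 3 lower members, 198 to 1630 higher and 441 to 1353 lower gene names, and 0 to 5 higher and 1 to 10 lower pathway genes, the highest counts over all gene names and of pathway genes coming without macrophage replicate 2. With probes free of repeats on the gene's own chromosome, an alternative chosen after seeing the data, the difference of Plxna2 turned from -0.36 to 3.86, and to 2.95 without macrophage replicate 2, as a different probe is read. That probe was well above background on no microglia array, so these are no measured differences, and the bounds are at least 7.58-fold and 4.04-fold. Plxna2 is among the higher members under this choice with all arrays and without replicate 2. Together with the animal as a block that choice gave 1 higher member, 257 and 491 gene names and 3 lower pathway genes, and without replicate 2 it gave 4 higher members, 1608 and 1356 gene names and 5 and 10 pathway genes. The number of arrays and signals near background limit what the untested members can show.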
